A study of Nasonia vitripennis with 2 samples.

Results

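Near fully methylated CpGs are the sites of the Nasonia vitripennis methylome at which almost every bisulfite read kept its cytosine. They were taken from whole-genome bisulfite sequencing (WGBS-seq) counts as the CpG sites with 30 to 170 reads of which at least 95% were methylated. Of 14024488 CpG sites, 2024750 had 30 to 170 reads and 3636 of these met both limits. CpGs with at least 10 reads are called covered, and covered CpGs with more than 10% methylated reads are called mCpGs. By this definition 1.5% of the covered CpGs were mCpGs, and 2.79% of the CpGs with 30 to 170 reads. The 3636 sites made up 6.44% of the 56457 mCpGs with 30 to 170 reads (95% Wilson interval 6.24% to 6.65%), and 0.180% of all CpGs at that depth. These sites were chosen by their number of reads and their methylation percentage, so their own level, their number and their share are a description and carry no test.

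A single pool of whole bodies from 50 females, adults at 24 h of the AsymCX strain, gave the DNA. All conditions were shared, so there is no treated or control group. It was run in 2 lanes, a GAIIx lane and a HiSeq2000 lane, and their counts are summed in 1 pair of numbers per site. A methylation percentage is therefore a mean over 50 animals and all their tissues, with no biological replicate. Intervals are 95% Wilson intervals, or Newcombe intervals for a difference. Both cover only the error of counting, as amplified reads were not traced to single molecules.

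In a bisulfite experiment non-methylated cytosines are read as T, while 5-methylcytosine is still read as C. In animals the mark is placed almost only at CpG sites, where both strands carry a cytosine, and the maintenance methyltransferase Dnmt1 copies it to the new strand after replication, while Dnmt3 enzymes set it on DNA without the mark. Nasonia, a parasitoid wasp, has both kinds of enzyme. In insects with this system, methylation is sparse over the genome and lies mainly in the transcribed part of broadly expressed genes. A level near 100% in a pool of whole animals means that nearly all sampled DNA molecules carried the mark at that site.

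The near fully methylated CpGs had 167262 reads in total, of which 162711 were methylated (97.3%) and 4551 were read as T. All reads were methylated at 759 sites (20.9%), 1 read was not at 1599 sites, 2 were not at 969 sites, and 3 to 7 were not at 309 sites. The class is the upper end of a broad distribution. In classes of 5 percentage points, the mCpGs with 30 to 170 reads were most frequent at 90% to 95%, with 6093 sites, against 3636 sites at 95% or more. Around the limit the sites form a continuum. At 95% to 96% there were 793 sites, 106 of them at exactly 95%, while 1124 sites lay between 94% and 95%, the highest of them at 94.9% (94 of 99 reads).

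The number of reads set how narrowly a single site was known. The median was 42 reads (quartiles 35 and 52), the same median as for CpGs at 90% to under 95%, against 46 reads for CpGs at 40% to 60% and 45 reads for all other mCpGs in the same range of depth. A site with 29 of 30 reads methylated had an interval of 83.3% to 99.4%, and a site with 57 of 60 had one of 86.3% to 98.3%, so many sites just above and just below the limit cannot be told apart. The share of mCpGs that were near fully methylated was 7.28% at 30 to 39 reads, 8.24% at 40 to 49 reads, 4.99% at 60 to 79 reads and 2.47% at 100 to 170 reads. The limit allows 1 unmethylated read at 30 to 39 reads and 2 at 40 to 59 reads. The part of this rounding to whole reads in the shares was not tested. The site with the most reads lay on SCAFFOLD5 at 803526, with 142 of 149 reads methylated (95.3%, interval 90.6% to 97.7%). Of the sites at 100%, the deepest lay on SCAFFOLD253 at 138406, with 121 of 121 reads (interval 96.9% to 100%).

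Near fully methylated CpGs lay on 302 of the 6183 scaffolds. The 20 scaffolds with the most of them held 1759 (48.4%), and on these they made up 4.95% to 8.15% of the mCpGs with 30 to 170 reads. No site on the mitochondrial scaffolds was among them. How many CpGs there had 30 to 170 reads is not given here, so this does not describe methylation on those scaffolds.

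Most stood alone in the sequence of well-read CpGs. When sites that follow each other among the CpGs with 30 to 170 reads, with gaps of at most 500 bp, were joined into runs, the 3636 sites formed 3079 runs. Of these, 2606 held a single site, 410 held 2, 47 held 3, 11 held 4 and 5 held 5. Runs of 2 or more took in 1030 sites, or 28.3% (26.9% to 29.8%). Runs built in the same way took in 27.2% of the 6093 CpGs at 90% to under 95% and 27.1% of the 9119 CpGs at 40% to 60%, although these sets are larger. The longest runs of those sets held 4 and 7 sites. Sites of a run often lie on the same reads, so their counts are not independent.

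The 5 longest runs show what an almost complete stretch looks like in single sites. On SCAFFOLD24, between 4617 and 4880 (264 bp), the 5 sites had 29 of 30, 74 of 76, 74 of 76, 73 of 76 and 58 of 60 reads methylated, and there was no other CpG in that span. Upstream of it, the covered CpGs at 4581 and 4562 had 10 of 11 and 11 of 11 reads methylated, and that at 4485 had 2 of 24. The run lies in a group of 39 mCpGs among 40 covered CpGs (3932 to 6420), in which 87.0% of 1530 reads were methylated.

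On SCAFFOLD397, between 2337 and 2830 (494 bp), the 5 sites had 33 of 33, 33 of 33, 51 of 52, 50 of 51 and 52 of 53 reads methylated. Another 5 CpGs lay between them with fewer than 30 reads, and the 4 of these that were covered had a methylation percentage of 87.7%. On SCAFFOLD1797, between 5413 and 5566 (154 bp), the sites had 56 of 58, 46 of 48, 45 of 46, 30 of 30 and 31 of 31 reads methylated. Just after it, at 5643, 5645 and 5652, further CpGs had 31 of 38, 30 of 37 and 32 of 37 reads methylated, all below the run. Both runs belong to groups in which every covered CpG was an mCpG, 14 sites at 83.8% and 11 sites at 88.2%.

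The other two runs of 5 were named because they tie in length, after their values were seen, and both lie close to non-methylated sequence. On SCAFFOLD5 the run between 3459421 and 3459624 had 39 of 40, 43 of 44, 50 of 51, 41 of 42 and 34 of 35 reads methylated. It ends its group: the next covered CpG, at 3459697, had 1 of 22 reads methylated, and the one after it 0 of 19. On SCAFFOLD19 the run between 2788717 and 2789260 had 43 of 44, 41 of 42, 41 of 42, 36 of 36 and 30 of 31 reads methylated. It opens its group: the covered CpG before it, at 2788667, had 1 of 17 reads methylated. Inside this run, 1 CpG with 25 reads was methylated in only 4 of them.

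**Figure D1:**
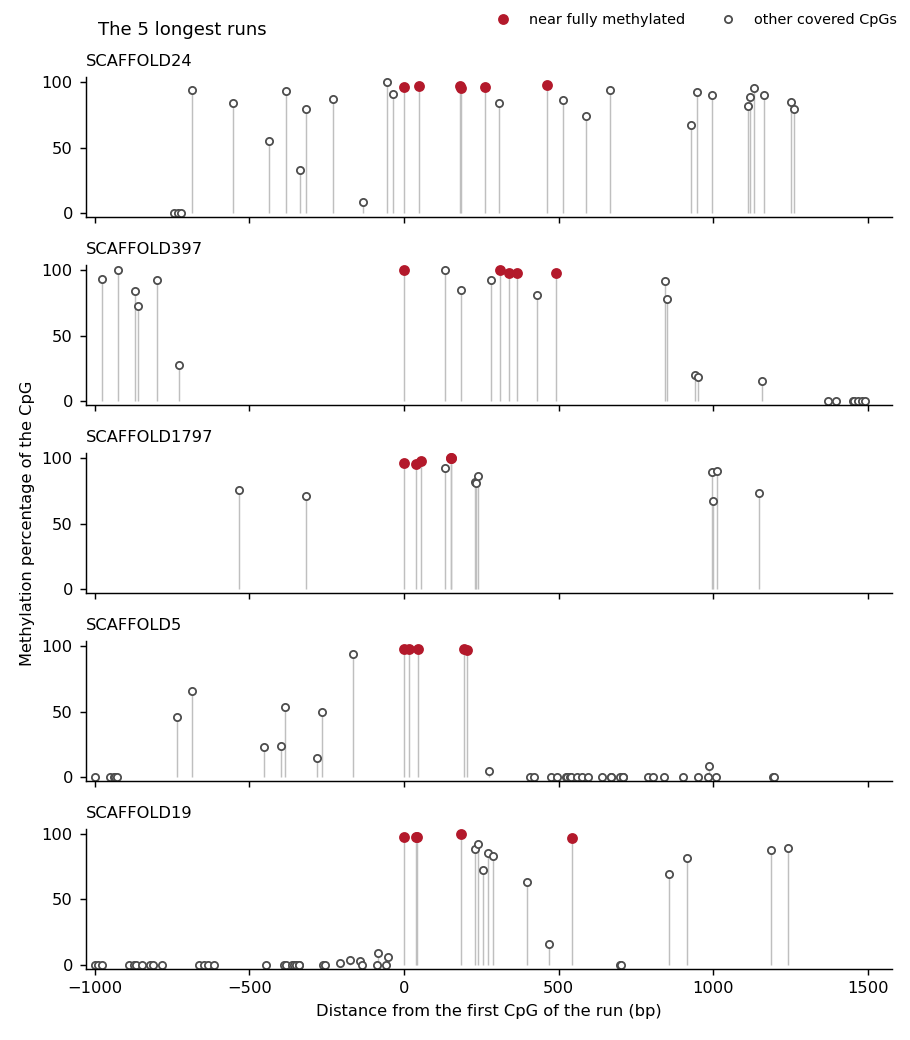
Methylation percentage of each covered CpG (vertical axis, 0 to 100%) by its distance in bp from the first CpG of the run (horizontal axis) for the 5 longest runs; filled red points are near fully methylated CpGs and open points are other covered CpGs. The run on SCAFFOLD5 is followed by a CpG with 1 of 22 reads methylated, and the run on SCAFFOLD19 is preceded by one with 1 of 17.

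The spacing between near fully methylated CpGs was uneven. The nearest other site of the kind lay at a median of 433 bp (quartiles 77.25 and 3435.75 bp), and 54 sites were the only ones on their scaffold. Of the remaining 3582 sites, 625 (17.4%) had their nearest at 2 to 24 bp and 262 (7.31%) at 25 to 74 bp. Few had it at 75 to 114 bp, 58 sites or 1.62%, while 262 sites (7.31%) had it at 150 to 190 bp. These classes differ in width, yet that at 75 to 114 bp and that at 150 to 190 bp are nearly equal. CpGs at 90% to under 95% had the same order with a smaller contrast. Their nearest site of their own kind lay at 75 to 114 bp for 255 of 6056 (4.21%) and at 150 to 190 bp for 384 (6.34%). For CpGs at 40% to 60%, the nearest site of their own kind lay at 75 to 114 bp for 526 of 9069 (5.80%) and at 150 to 190 bp for 420 (4.63%).

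The same spacing appeared in the methylation percentage of the CpGs around them. Covered CpGs at 2 to 9 bp from a near fully methylated CpG were methylated in 87.4% of their reads, those at 10 to 29 bp in 82.8% and those at 30 to 74 bp in 62.4%. Up to that distance 2 sites can lie on the same 75-bp read. At 75 to 115 bp, where no read spans both sites, the pooled level was 49.8%, and it was 69.9% at 150 to 190 bp, 42.8% at 230 to 270 bp and 52.6% at 320 to 360 bp. In 10-bp bins the level had a first low at 100 to 109 bp (48.5%) and was highest after that at 160 to 169 bp (71.1%). It was low again at 260 to 269 bp (40.6%) and high again at 330 to 339 bp (55.3%). A last, smaller high lay at 500 to 509 bp (38.1%), after 33.1% at 430 to 439 bp.

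The single neighbors show the same alternation as the pooled reads. At 75 to 115 bp the median neighbor had a level of 63.6% (quartiles 20.8% and 83.3%, 3992 pairs), and at 150 to 190 bp the median was 87.0% (61.1% and 94.4%, 4950 pairs). On each of the 20 scaffolds with the most near fully methylated CpGs, the pooled level was higher at 150 to 190 bp than at 75 to 115 bp, by 3.58 to 39.2 percentage points with a median of 21.9.

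Around CpGs of intermediate level the pooled level had another course. Around CpGs at 40% to 60%, the pooled level of covered CpGs was 42.9% at 75 to 115 bp, 37.9% at 150 to 190 bp, 37.0% at 230 to 270 bp and 31.5% at 320 to 360 bp, a decline with distance. CpGs at 90% to under 95% had the same order as the near fully methylated ones with a smaller amplitude, 51.3%, 63.4%, 44.6% and 47.8% at these distances. The difference between the level at 150 to 190 bp and that at 75 to 115 bp was 20.1 points around near fully methylated CpGs, 12.2 points around CpGs at 90% to under 95%, and -4.98 points around CpGs at 40% to 60%. With 1 pool these differences were not tested.

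**Figure D2:**
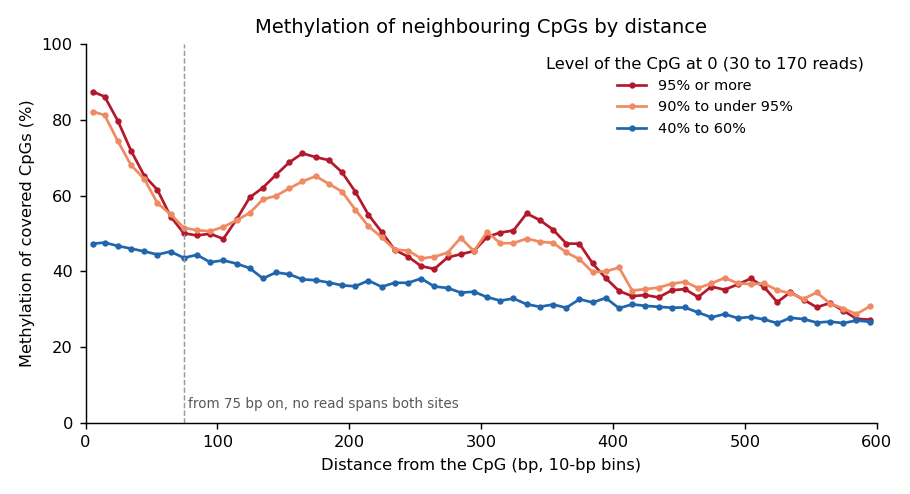
Pooled methylation percentage of covered CpGs (vertical axis) by distance in bp, in 10-bp bins (horizontal axis), from CpGs with 30 to 170 reads at 95% or more (red), at 90% to under 95% (orange) and at 40% to 60% (blue). The red line has its highs at 160 to 169 bp (71.1%) and 330 to 339 bp (55.3%), and the blue line declines.

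Near fully methylated CpGs also recurred at these distances themselves. Of the mCpGs with 30 to 170 reads at 75 to 115 bp from a near fully methylated CpG, 90 of 1816 were near fully methylated too, or 4.96% (4.05% to 6.05%), against the background of 6.44%. At 150 to 190 bp they were 460 of 2146, or 21.4% (19.8% to 23.2%), at 230 to 270 bp 62 of 1484 (4.18%) and at 320 to 360 bp 320 of 1743 (18.4%). The differences were 16.5 points (14.5 to 18.5) for the nearer pair of distances and 14.2 points (12.1 to 16.3) for the farther pair. Each pair of sites is counted from both sides, so these intervals are too narrow. The distances were also chosen with earlier results of these data known, so the intervals carry no test. The nearer difference was 9.99 points for sites of 50 to 170 reads and 5.56 points for sites at 100%, of which there are fewer. The background shares were lower too, 4.66% and 1.34%, so these points cannot be set directly against the 16.5.

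This recurrence was shared with CpGs just below the limit. Around CpGs at 90% to under 95%, 14.6% of the mCpGs at 150 to 190 bp and 4.99% of those at 75 to 115 bp were near fully methylated, a difference of 9.65 points (8.23 to 11.1). Their own kind recurred too, with 18.0% and 11.7%, a difference of 6.30 points (4.57 to 8.02). Around CpGs at 40% to 60% the share of near fully methylated CpGs ran the other way. It was 6.58% at 75 to 115 bp, 4.37% at 150 to 190 bp, 7.65% (6.84% to 8.55%) at 230 to 270 bp and 4.54% (3.89% to 5.30%) at 320 to 360 bp, lower where the share around near fully methylated CpGs was high. The difference for the nearer pair of distances was -2.22 points (-3.17 to -1.25), while CpGs at 40% to 60% themselves were more frequent at 150 to 190 bp by 2.66 points (1.03 to 4.30). Pairs of the same kind are again counted from both sides, so the intervals of the 6.30 and 2.66 points are too narrow. Around all other mCpGs, which mix levels, the difference was 0.525 points.

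Depth fell with distance, which can be read beside these values: covered CpGs around near fully methylated CpGs had a mean of 39.6 reads at 75 to 115 bp, 35.6 reads at 150 to 190 bp and 33.7 reads at 320 to 360 bp. Among the mCpGs with 30 to 170 reads the means were alike, 51.7 and 51.2 reads at the nearer pair of distances, and with neighbors of 30 to 50 reads only the difference was 18.3 points. The library was cut to fragments of 130 to 180 bp and a single end of each was counted, so the 2 strands of a fragment could give reads at sites up to 180 bp apart. The part of the fragment length in the alternation was not tested.

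**Figure D3:**
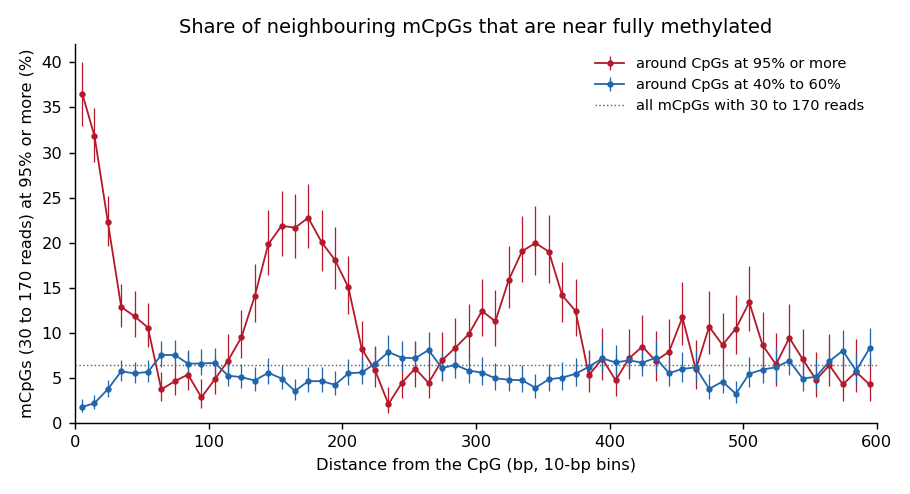
Share of mCpGs with 30 to 170 reads that are near fully methylated (vertical axis, %, with 95% Wilson intervals as bars) by distance in bp, in 10-bp bins (horizontal axis), around near fully methylated CpGs (red) and around CpGs at 40% to 60% (blue); the dotted line is the share among all mCpGs at this depth (6.44%). The red points lie well above the line at 150 to 190 bp (21.4%) and 320 to 360 bp (18.4%) and below it at 230 to 270 bp (4.18%).

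Between 2 near fully methylated CpGs that lie 150 to 190 bp or 320 to 360 bp apart, the level was lower away from both. For the 230 pairs that lie 150 to 190 bp apart, the covered CpGs between them had a pooled level of 89.7% at 2 to 24 bp from the nearer of both, 71.2% at 25 to 49 bp, 56.5% at 50 to 74 bp and 48.9% at 75 to 95 bp, the middle of the interval. Of the 61 CpGs in the middle, 49 were mCpGs. Only 30 different mCpGs there had 30 to 170 reads, and the 0 of these that were near fully methylated allow a share of up to 10%, which includes the background of 6.44%. For the 160 pairs that lie 320 to 360 bp apart, the level was 86.8%, 73.5%, 60.1% and 51.6% at 2 to 24, 25 to 49, 50 to 74 and 75 to 99 bp, and it was higher again further in, 67.3% at 100 to 149 bp and 79.2% at 150 to 180 bp. A CpG between several pairs is counted for each. The 31 pairs that lay 230 to 270 bp apart had no such dip at these distances: the level was 85.3% at 2 to 24 bp, 76.2% at 25 to 49 bp, 84.1% at 50 to 74 bp, 84.5% at 75 to 99 bp and 69.3% in the middle, at 100 bp or more. Few different mCpGs with 30 to 170 reads lay between them. In the order of these distances, 3 of 12, 1 of 17, 6 of 16, 5 of 20 and 0 of 14 were near fully methylated. The background was 6.44%, and the 0 of 14 allow a share of up to 21.4%.

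At the shortest possible distance, 2 CpGs adjoin in the tetranucleotide CGCG and lie 2 bp apart. Of the near fully methylated CpGs, 81 (2.23%, 1.80% to 2.76%) had such a partner, compared with 1.89% of the other mCpGs and 14.4% of all CpGs with 30 to 170 reads. The partners had a pooled level of 92.4% and a median of 93.5%, and the lowest was 75.8%. Among the 77 partners with 30 to 170 reads, 26 were near fully methylated, so even on shared reads the partner of a near fully methylated CpG was more often below the limit than above it.

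Nearly all near fully methylated CpGs belonged to larger groups of mCpGs. A group joined mCpGs up to 500 bp apart and was closed by 3 covered non-methylated CpGs in a row. Of the near fully methylated CpGs, 3581 (98.5%, 98.0% to 98.8%) lay in groups of 4 or more mCpGs, 43 lay in groups of 2 or 3 and 12 were alone. For CpGs at 90% to under 95% the share in groups of 4 or more was 97.6%, for those at 40% to 60% it was 90.6%, and for all other mCpGs 90.8%. The share of mCpGs with 30 to 170 reads that were near fully methylated was 0.542% for mCpGs that were alone, 1.58% in groups of 2 or 3, 4.10% in groups of 4 to 7, 6.99% in groups of 8 to 15, 6.86% in groups of 16 to 31, 8.59% in groups of 32 to 63 and 6.78% in groups of 64 or more. From 8 mCpGs on, the share had no steady trend with size.

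These sites were spread over many groups with few in each. They occurred in 2231 of the 15644 groups, of which 1364 held 1, 551 held 2 and 316 held 3 or more. Of the 6423 groups with 4 or more mCpGs and at least 1 of them at 30 to 170 reads, 2182 (34.0%) held a near fully methylated CpG. The other such groups may hold sites of this level among CpGs with fewer reads: at 10 to 29 reads, 8104 of 60362 mCpGs were at 95% or more, where the limit allows at most 1 unmethylated read.

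The group with the most lay on SCAFFOLD374 between 15146 and 18704. It held 42 covered CpGs, each of them an mCpG, and 75.7% of their 2003 reads were methylated. Of 35 mCpGs with 30 to 170 reads, 11 were near fully methylated, with 448 of 461 reads methylated. Of these, 4 lay close together between 16947 and 17011, with 34 of 35, 34 of 34, 45 of 47 and 57 of 59 reads, and another pair, at 18690 and 18704, had 38 of 40 and 43 of 43 reads. The site at 18704 is the last mCpG of the group.

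The next groups held 8 each, and 3 groups tied at that number. The first 2 of them by reads were those on SCAFFOLD823 and SCAFFOLD269. The group on SCAFFOLD823 (13832 to 17616) had 52 mCpGs among 52 covered CpGs at 78.7%, and all 8 of its near fully methylated CpGs lay at 15517 or beyond, the deepest with 78 of 81 reads. That on SCAFFOLD269 (78251 to 81226) had 41 mCpGs among 45 covered CpGs at 72.8%, and its deepest site had 103 of 105 reads. No site of its 8 was at 100%, against 2 sites in each of the groups on SCAFFOLD374 and SCAFFOLD823.

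Within groups, near fully methylated CpGs, like those just below the limit, were fewer at the ends than other mCpGs. Of the 3581 in groups of 4 or more, 247 (6.90%, 6.11% to 7.77%) were the first or last mCpG, against 7.70% (7.05% to 8.40%) of the CpGs at 90% to under 95%, 14.6% of the CpGs at 40% to 60% and 13.3% of all other mCpGs. The difference from the other mCpGs was -6.36 points (-7.20 to -5.43). Groups chained over at most 200 bp are shorter, and 13.9% of the near fully methylated CpGs were then first or last. The share of other mCpGs in such groups was not computed, so the 13.9% has no comparison. With gaps of up to 500 bp, the median distance of near fully methylated CpGs to the nearer end was 309 bp. It was 334 bp for CpGs at 90% to under 95%, 228 bp for CpGs at 40% to 60% and 261 bp for all other mCpGs. The groups were of similar length (medians of 1372, 1386, 1326.5 and 1348 bp).

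The share did not simply increase inwards from the end of a group. Of the first and last mCpGs, 3.74% were near fully methylated. The share was 4.28% (3.60% to 5.08%) at 100 to 139 bp from the nearer end, 11.3% (10.2% to 12.5%) at 180 to 219 bp, 6.03% at 240 to 279 bp and 10.5% at 340 to 379 bp. The differences between these classes were 7.04 points (5.68 to 8.42) and 4.46 points (2.90 to 6.05). The classes were chosen with earlier results of these data known, so the intervals carry no test. The pooled level of the mCpGs was also higher at 180 to 219 bp (69.1%) and 340 to 379 bp (70.5%) than at 100 to 139 bp (58.6%) and 240 to 279 bp (63.5%). With a coverage minimum of 20 reads for mCpGs the first of these differences was 4.66 points. An end of a group is set by the levels of its outermost sites and of 3 sites beyond, so the end and the sites within 75 bp of it can share reads.

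**Figure D4:**
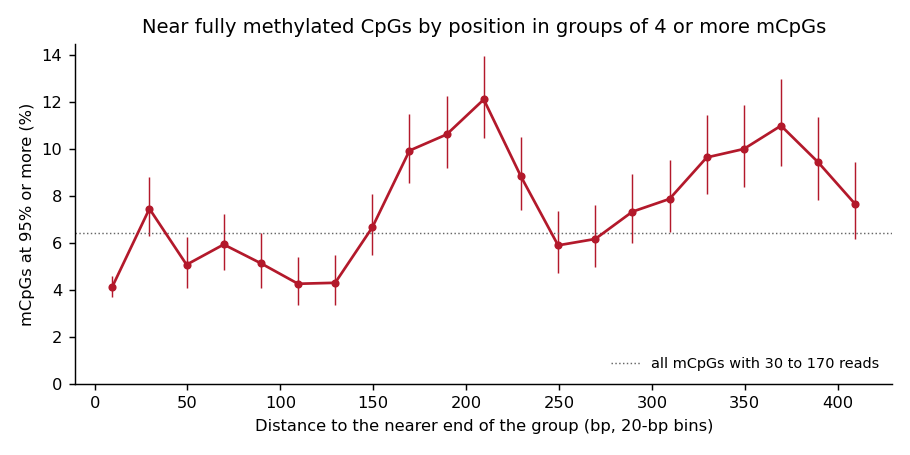
Share of mCpGs with 30 to 170 reads that are near fully methylated (vertical axis, %, with 95% Wilson intervals as bars) by distance in bp to the nearer end of the group, in 20-bp bins (horizontal axis), for groups of 4 or more mCpGs; the dotted line is the share among all mCpGs at this depth (6.44%). The points stand above the line near 200 bp and again near 360 bp, with 11.3% at 180 to 219 bp and 4.28% at 100 to 139 bp.

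The local density of CpG sites around near fully methylated CpGs was low, like that around other mCpGs. The median was 18 CpG sites in the surrounding 1000 bp (quartiles 14 and 25, range 4 to 63), against 18 for CpGs at 90% to under 95%, 19 for CpGs at 40% to 60%, 19 for all other mCpGs and 57 for all CpGs with 30 to 170 reads. Among mCpGs the share that was near fully methylated was highest at 15 to 19 CpG sites per 1000 bp, with 7.62% (7.18% to 8.09%). It was 5.67% (5.02% to 6.40%) below 10 sites, 4.97% at 30 to 39 sites and 3.57% (2.99% to 4.26%) at 40 to 59 sites. At 60 or more sites 1 of 134 mCpGs was near fully methylated. The share of CpGs that were mCpGs differed far more between these classes, being 56.0% below 10 sites and 0.738% at 40 to 59 sites. By the distance to the nearest CpG of any level, the share was 8.19% where that CpG lay at 10 to 19 bp and 4.67% where it lay at 40 to 74 bp.

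**Figure D5:**
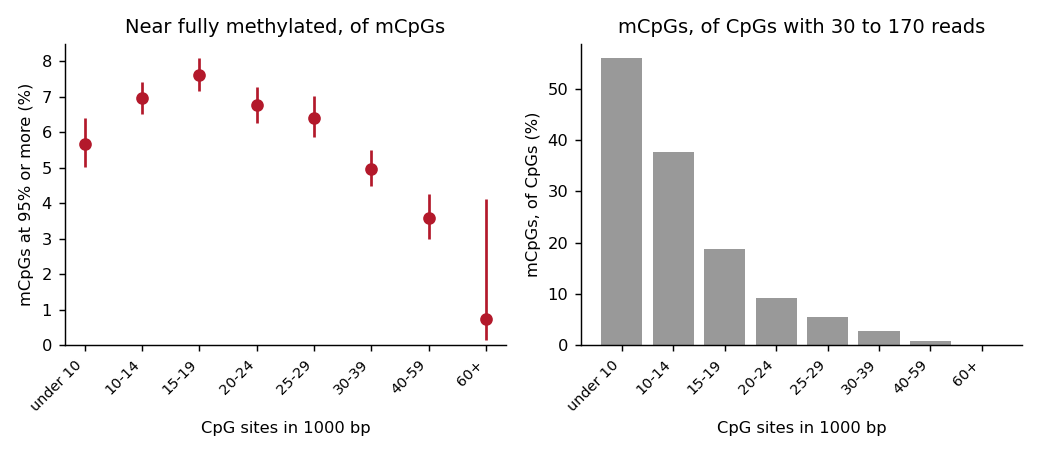
Left: share of mCpGs with 30 to 170 reads that are near fully methylated (vertical axis, %, with 95% Wilson intervals as bars) by the number of CpG sites in 1000 bp (horizontal axis). Right: share of CpGs with 30 to 170 reads that are mCpGs in the same classes; the share on the left is highest at 15 to 19 sites (7.62%), and that on the right is highest below 10 sites (56.0%).

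Some near fully methylated CpGs lay in surroundings unlike the rest. Of the 12 that were alone, 3 had no other mCpG within 500 bp. The site on SCAFFOLD457 at 167769 was methylated in 49 of 49 reads (interval 92.7% to 100%), while the 9 covered CpGs within 500 bp had 2 of 299 reads methylated. The site on SCAFFOLD7 at 1925344 had 32 of 33 reads methylated, and the 25 covered CpGs around it had 8 of 812 (0.985%). Around the third, on SCAFFOLD18 at 2761110 with 32 of 33 reads, no other CpG within 500 bp was covered, so the levels of its neighbors are not known.

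The densest surroundings were those of a site on SCAFFOLD77 at 42369, with 39 of 41 reads methylated and 63 CpG sites in 1000 bp. Its group held 2 mCpGs, and the 56 covered CpGs within 500 bp were methylated in 65 of 1731 reads (3.76%). Next were the site on SCAFFOLD16 at 3563073, with 35 of 35 reads and 59 CpG sites in 1000 bp, and the site on SCAFFOLD5 at 925338, with 70 of 73 reads and 58 sites, the deepest of 4 at that density. In these the covered CpGs within 500 bp were methylated in 19.2% and 30.6% of their reads, still far below the 121 of 121 site on SCAFFOLD253, around which 79.3% of the reads were methylated.

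Genes are given here for the methylated CpG clusters that the study lists with positions and gene identifiers of the OGS1.2 set. The study lists these clusters as genic in OGS1.2 but absent from its updated gene set, OGS2. It chose these 10 clusters on the same reads, so their methylation is not independent evidence. In them 10 of 143 mCpGs with 30 to 170 reads were near fully methylated, or 6.99% (3.84% to 12.4%), with the background of 6.44% inside the interval. The 10 sites lay in 4 of the clusters. In mCpGCL5288 of NV18909 on SCAFFOLD595 there were 5 of 41, with 40 of 42 reads at 25954, 43 of 45 at 27164, 47 of 48 at 27187, 52 of 54 at 27191 and 37 of 37 at 30608. In the clusters of NV50511 on SCAFFOLD101 there were 4: mCpGCL4604 held the site at 508520 with 41 of 43 reads, and mCpGCL4605 held those at 510611, 511281 and 511630 with 81 of 85, 37 of 37 and 29 of 30 reads. The last was in mCpGCL4908 of NV18219 on SCAFFOLD152 at 209680, with 45 of 45 reads. What these genes encode is not annotated in the sources used here.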

How the data were processed

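WGBS-seq was analyzed for 1 pool of 50 females. The authors trimmed reads to 75 bp, aligned them with BWA (version not given in the sources used here) to converted reference scaffolds with up to 4 mismatches, kept unique alignments, and deposited raw counts of reads with C and with T per CpG site, summed over both lanes and both strands. Total counts were 226856322. The scaffold release is not given in the sources used here; positions are those of the deposited counts, 1-based. The labels' processing notes also name CASAVA 1.7.

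Members, comparison sets (90% to under 95%, 40% to 60% and all other mCpGs, each with 30 to 170 reads) and the distances compared were chosen with earlier results of these data known. Regions named in the text were the 3 longest runs (most sites, then reads), the 3 groups with the most members, the sites with the most reads, the deepest isolated sites, the 3 sites of highest density, and the clusters listed by the study. A level of several sites is methylated reads over all reads. Shares have 95% Wilson intervals, differences Newcombe intervals, and a count of 0 the limit of 3 counts. With 1 pool, no test between groups was made. The neighbor, run and group routines were tested on simulated data. Alternatives varied the depth, the level, the mCpG definition and the gaps. Genes by position and sequences were not analysed here, since the annotation at hand is of another build. Software was matplotlib 3.10.9, SciPy 1.17.1, pandas 2.3.3, NumPy 2.4.6 and Python 3.11.15.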

Additional observations from a re-analysis of the deposited data

How the results depend on the processing

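Of 74 alternatives, 32 left a value within its counting interval and 42 moved it outside. The number of sites has no such interval, and a fixed limit on its ratio was used instead. A reversal was possible only for the difference by distance and the difference from a group's end, and 0 were seen. No paired analysis was possible because 1 pool was sequenced and both lanes are summed, so leaving out a lane was not possible either. The alternatives for the difference by distance and the difference from a group's end were added once the values had been seen. The number of sites, 3636, was 7748 at 20 to 170 reads, 1070 at 50 to 170, 9729 at a level of 90% or more and 759 at 100%. Their share of mCpGs was 9.21%, 4.66%, 17.2% and 1.34% in these 4 settings, 5.73% with a lower Wilson bound above 85%, and 7.14% with mCpGs above 20%. The share in runs of 2 or more was 35.6%, 19.5%, 47.7% and 8.17%, 26.1% with the Wilson bound and 26.0% with gaps of 200 bp. The median distance to the nearest was 189, 3730, 163 and 15253 bp, and 498 bp with the Wilson bound; more sites called are closer together by construction. The level at 75 to 300 bp, 54.8%, was 54.4% at 20 to 170 reads, 54.2% at 50 to 170, 53.8% at 90% or more, 54.7% with the Wilson bound, 54.1% with neighbors of 20 reads or more and 57.1% as the mean of the sites' own percentages. The share in groups of 4 or more was 98.0% at 90% or more, 96.9% with a coverage minimum of 20 reads and 92.8% with gaps of 200 bp. The share of first or last mCpGs was 8.34% at 50 to 170 reads, 8.07% with mCpGs above 20%, 10.2% with the minimum of 20 reads and 13.9% with gaps of 200 bp. The difference by distance (the share at 150 to 190 bp minus that at 75 to 115 bp), 16.5 points, was 9.99 at 50 to 170 reads, 21.6 at 90% or more and 5.56 at 100%, and 14.5 without the 20 scaffolds with the most sites. The difference from a group's end, 7.04 points, was 4.66 with the minimum of 20 reads and 5.29 with gaps of 200 bp. The median density, 18, was 19 at 20 to 170 reads, and 16 and 23 per 1000 bp with windows of 500 bp and of 2 kbp. The cause of these shifts was not tested.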

Other observations

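The study lists 28 candidate sites of methylation outside CpGs. The deposited counts hold CpG sites only, so the candidates themselves were not analysed here. Near fully methylated CpGs lay within 1000 bp of 8 of them and within 200 bp of 4. The candidates on SCAFFOLD384 at 36991 and 36993, both among these 4, have the same nearest site, at 36853. The study places most candidates in or near methylated CpG clusters. How often other mCpGs lie this close to a near fully methylated CpG was not computed, so the counts show no particular closeness. The study marks 4 of these 8 as lying in CpG context, so they may not be cytosines outside a CpG. The closest pair was on SCAFFOLD18, where the candidate at 1867777, in the coding sequence of Nasvi2EG009539, is 1 of these 4 and lay 13 bp from a near fully methylated CpG with 40 of 40 reads methylated. On SCAFFOLD316 the intronic candidate, not so marked, at 13840 in Nasvi2EG026653 lay 142 bp from a site with 94 of 96 reads methylated.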
